A study of Arabidopsis thaliana with 12 samples.

Results

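AT4G33500 and AT1G67820 are 2 Arabidopsis thaliana genes for protein phosphatases of the 2C family (PP2C), chosen here because their transcript signals had moved in opposite directions in an earlier look at the same arrays. Each is read by 1 probe that is annotated with that gene alone, so they are 2 of the 692 single-gene probes among the 3439 probes of the array. The chosen values are the differences between the ascorbate and the water group themselves, and these are therefore described below without a test. By their locus names AT4G33500 lies on chromosome 4 and AT1G67820 on chromosome 1.

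The plants were wild type of ecotype Columbia 0 in all samples. In 6 samples they stood in water for 8 h. In the other 6 they stood in water for 4 h and then for 4 h in 25 mM ascorbate at pH 5.5, so the total time was the same. The labels name no tissue, plant age or pH of the water, and no control moved to a fresh solution without ascorbate, so ascorbate, acidity, solute and the change of solution cannot be told apart. Total RNA was read in 1 channel, and the samples are numbered 1 to 6 in each group. Nothing says that these numbers are separate plants or cultures, so every p-value given here measures the spread between samples only, which may be technical.

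PP2C enzymes remove phosphate from serine and threonine residues of proteins and need a metal ion for it. They form one of the largest phosphatase families of plants. The best known members are co-receptors of the hormone abscisic acid and hold its SnRK2 kinases inactive until the hormone is bound, and members of the AP2C group, to which AT1G67820 belongs by sequence, include AP2C1, which dephosphorylates mitogen-activated protein kinases. Other PP2C enzymes act on thylakoid proteins in chloroplasts. The role of AT4G33500 is not described here, since its substrates were not given in the sources used.

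Deposited intensities are on a relative linear scale that ends at 100, and their scaling is not given in the sources used here. The median intensity of an array lay between 0.252 and 0.485, the summed intensity between 3054 and 3562, and 11.5% to 14.2% of the probes of an array were listed at 0. Ascorbate arrays 1 and 2 stood apart with medians of 0.252 and 0.259, against 0.383 to 0.485 on the other 10 arrays. Their summed intensities of 3451 and 3490 were not low, since the other ascorbate arrays had 3175 to 3251. Differences of the phosphatase probes are therefore also given without numbers 1 and 2. Medians of consecutive numbers were close. In water they were 0.470 and 0.475, 0.408 and 0.405, and 0.477 and 0.485. In ascorbate they were 0.252 and 0.259, 0.383 and 0.383, and 0.419 and 0.416. Counts over 6 numbers and SDs of 6 arrays may therefore rest on fewer separate units than 6. With 6 arrays a group, precision is limited by their number.

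The transcript signal of AT4G33500 was lower after ascorbate. On water arrays 1 to 6 its deposited intensity was 1.17, 1.14, 1.07, 1.01, 1.17 and 1.11. On ascorbate arrays 1 to 6 it was 0.194, 0.181, 0.285, 0.268, 0.501 and 0.492. All 6 water values lay close together, the ascorbate values of numbers 5 and 6 lay above those of numbers 1 to 4, and the groups did not overlap. The mean was 1.11 ± 0.0642 in water and 0.320 ± 0.143 in ascorbate (SD, n = 6 each).

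The signal of AT1G67820 was dim and less clear as deposited. On water arrays 1 to 6 it was 0.187, 0.174, 0.135, 0.119, 0.147 and 0.167. On ascorbate arrays 1 to 6 it was 0.108, 0.124, 0.262, 0.205, 0.261 and 0.352. Ascorbate arrays 3 to 6 lay above every water array, while ascorbate array 1 lay below all 6 water arrays and ascorbate array 2 below 5 of them. The mean was 0.155 ± 0.0257 in water and 0.218 ± 0.0926 in ascorbate (SD, n = 6 each), and the groups overlapped.

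**Figure D1:**
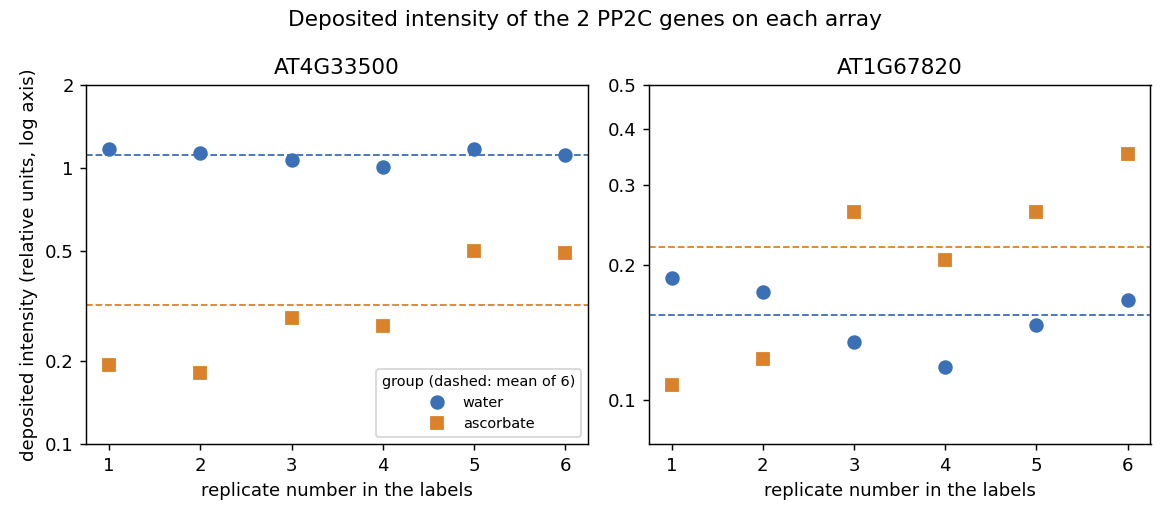
Deposited intensity (relative units, log axis) of AT4G33500 (left) and AT1G67820 (right) by replicate number, with circles for water, squares for ascorbate and dashed lines at the mean of 6 arrays. All ascorbate values of AT4G33500 lie under its water values, whereas AT1G67820 is lower in ascorbate at numbers 1 and 2 and higher at numbers 3 to 6.

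Non-overlap of this kind was not rare. On deposited values the groups failed to overlap with ascorbate lower at 9.09% of the 3266 probes above 0 on at least 1 array, and with ascorbate higher at 2.48%. These shares are the background for the pair, and since the pair was chosen on this contrast nothing is read from them.

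Both probes were read above the low end of the scale on every array. Taking as the lower end of an array the 1st percentile of its values above 0, AT4G33500 stood at 19.9 to 92.1 times that level. AT1G67820 stood at 3.07 to 20.9 times that level, and was nearest to it on water arrays 5 and 6, at 3.25 and 3.07 times. The next nearest was water array 2, at 9.52 times. On water arrays 5 and 6 the lower end itself was higher, at 0.0451 and 0.0545, against 0.0112 to 0.0183 on the other water arrays. The deposited intensity of AT1G67820 was not lower there than on water arrays 3 and 4. The reading of AT1G67820 in water at numbers 5 and 6 thus rests on signals closer to the lower end than any other reading of the pair.

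The rank of a probe within its own array does not depend on how the array was scaled. AT4G33500 stood at the 83.5th to 86.0th percentile of all probes on the water arrays, and at the 38.2nd to 56.7th on the ascorbate arrays. The means were 84.3 ± 1.03 and 45.7 ± 8.39 (SD, n = 6 each), and numbers 5 and 6 were the highest of the ascorbate arrays. AT1G67820 stood at the 18.4th to 24.1st percentile in water and at the 30.2nd to 44.3rd in ascorbate, with means of 21.3 ± 2.0 and 34.6 ± 5.37 (SD, n = 6 each). On this measure neither gene's groups overlapped, also at numbers 1 and 2, where AT1G67820 stood at 24.1 and 22.6 in water and at 30.2 and 31.9 in ascorbate. By rank the groups did not overlap with ascorbate higher at 5.60% of the probes and with ascorbate lower at 4.04%.

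**Figure D2:**
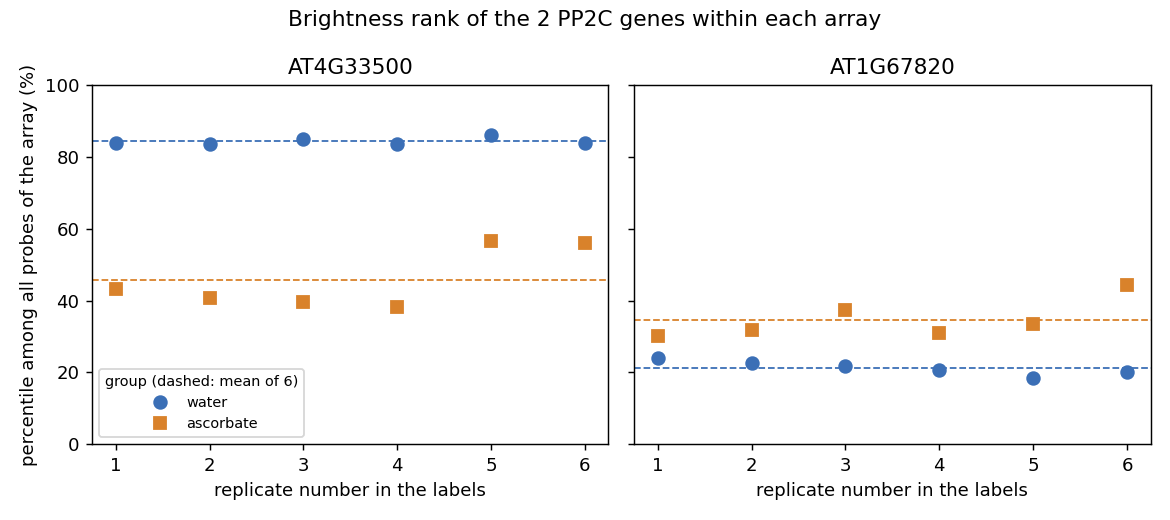
Percentile of AT4G33500 (left) and AT1G67820 (right) among all 3439 probes of each array, by replicate number, with circles for water, squares for ascorbate and dashed lines at the mean of 6 arrays. Water and ascorbate are apart for both genes, downwards for AT4G33500 and upwards for AT1G67820.

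After quantile normalization, which gives every array the same distribution of values, AT4G33500 stood between 0.06 and 0.21 log2 intensity on the water arrays and between -1.85 and -1.08 on the ascorbate arrays. The difference of the means was -1.63 on the normalized log2 scale, 3.10-fold lower in ascorbate, and the nearest water and ascorbate values were 1.14 log2 units apart. AT1G67820 stood between -3.53 and -2.74 in water and between -2.27 and -1.58 in ascorbate. Its difference was 1.04, 2.06-fold higher in ascorbate, with means of -3.08 ± 0.28 and -2.04 ± 0.26 (SD, n = 6 each) and 0.47 log2 units between the nearest values. On this scale the groups did not overlap with ascorbate lower at 4.07% of the tested probes and with ascorbate higher at 5.57%.

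Among the 653 tested single-gene probes the difference of AT4G33500 was the 8th from the bottom, and that of AT1G67820 the 14th from the top. Among all 3266 tested probes they were the 39th from the bottom and the 91st from the top. Among the 2711 probes above 0 on all 12 arrays AT4G33500 was the 6th from the bottom, so most probes with a lower value had zeros on some array. In limma, with Benjamini-Hochberg adjustment over the 3266 probes, 17.1% of the probes passed the threshold of 0.05, 9.74% with ascorbate higher and 7.38% with ascorbate lower. The balance turned with the scaling, from 318 higher and 241 lower after quantile normalization to 91 higher and 328 lower as deposited. When each 2 consecutive numbers were averaged first, limma called 1 probe in place of 559. With the replicate number as a block, which the main fit leaves out, it called 796. The median difference of all tested probes was 0.001 log2 units after quantile normalization.

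**Figure D3:**
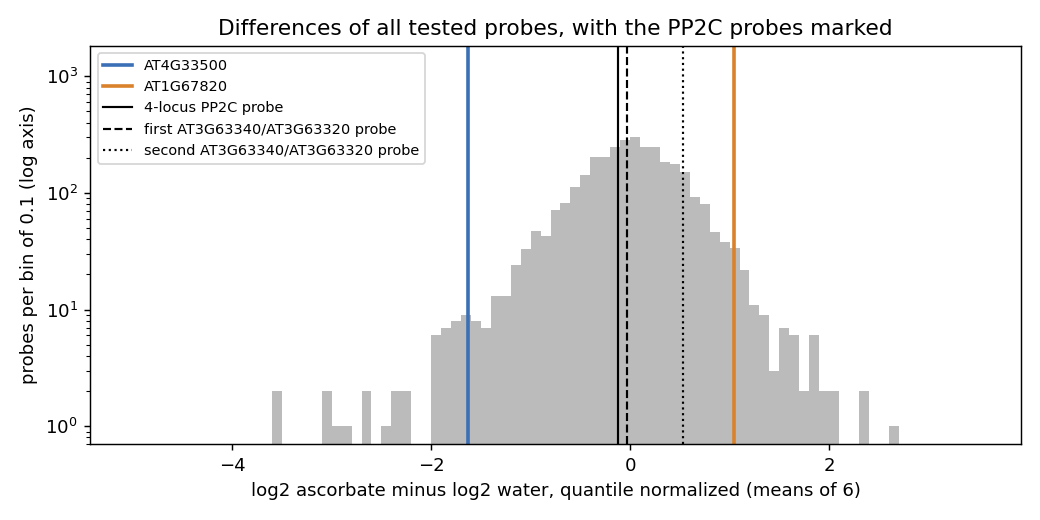
Number of probes (log axis) by their difference between ascorbate and water in normalized log2 intensity, means of 6 arrays each, for the 3266 tested probes. Vertical lines mark AT4G33500 at -1.63, AT1G67820 at 1.04 and the 3 probes that are annotated with several PP2C loci, at -0.12, -0.03 and 0.54.

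The size of both differences, and for AT1G67820 its sign at numbers 1 and 2, depended on the scaling between arrays. As deposited, AT4G33500 differed by -1.91 and AT1G67820 by 0.39 on the log2 scale. After centring of the arrays on their medians the values were -1.52 and 0.79, and with arrays scaled on their 75th percentile they were -1.72 and 0.59. The groups of both genes stayed apart after centring, as they did with ascorbate higher at 8.05% and with ascorbate lower at 3.15% of the tested probes. The median of all tested probes moved by -0.35 as deposited, 0.04 after centring and -0.16 with the 75th percentile. Measured from that median, AT1G67820 was higher in ascorbate and AT4G33500 lower on each of these scales.

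AT4G33500 was lower in ascorbate at all 6 numbers under each scaling, a pattern that 14.1% of the tested probes had on normalized and 22.8% on deposited values. Its normalized differences at numbers 1 to 6 were -1.70, -1.79, -1.93, -1.91, -1.29 and -1.19 log2 units. As deposited they were -2.60, -2.66, -1.90, -1.92, -1.23 and -1.18. Numbers 1 and 2 showed the largest differences as deposited but not after normalization, and numbers 5 and 6 the smallest on both scales, at 2.44-fold and 2.28-fold lower after normalization.

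AT1G67820 was higher in ascorbate at 6 of 6 numbers after normalization, as were 15.1% of the tested probes, and at 4 of 6 as deposited. Its normalized differences at numbers 1 to 6 were 0.47, 0.73, 1.10, 0.89, 1.44 and 1.64 log2 units. As deposited they were -0.79, -0.49, 0.96, 0.79, 0.83 and 1.07. Centred on the array median they were 0.11, 0.38, 1.05, 0.87, 1.02 and 1.30, and with the 75th percentile 5 of 6 numbers were higher and the groups overlapped. Numbers 1 and 2, the pair with the low ascorbate medians, thus changed sign with the scaling, and numbers 3 to 6 did not. With arrays scaled to the same total, the differences at numbers 1 and 2 were -0.75 and -0.46. Without numbers 1 and 2 in both groups the difference of AT1G67820 was 0.91 as deposited, against 0.39 with them, 0.94 on the 75th percentile, 1.06 after centring and 1.18 after quantile normalization. That of AT4G33500 was -1.56, -1.53, -1.41 and -1.49 on the same 4 scales.

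**Figure D4:**
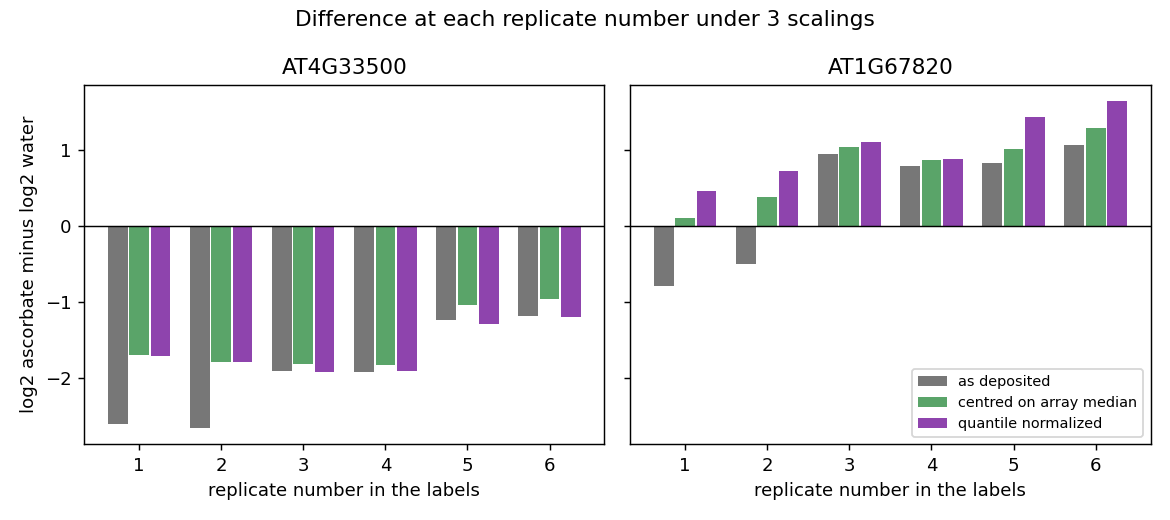
Difference between the ascorbate and the water array of the same replicate number (log2 ascorbate minus log2 water) for AT4G33500 (left) and AT1G67820 (right), as deposited, centred on the array median and quantile normalized. Every bar of AT4G33500 is below 0, and for AT1G67820 the deposited bars of numbers 1 and 2 are below 0 while the other bars are above it.

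Reading both probes on the same array removes any factor that is common to the array. The log2 ratio of the AT1G67820 to the AT4G33500 probe was -2.86 ± 0.18 on the water arrays and -0.55 ± 0.30 on the ascorbate arrays (SD, n = 6 each), on deposited values. The change of 2.31 log2 units is a 4.95-fold shift between the 2 probes, and its size is the same for every scaling by 1 factor per array. At numbers 1 to 6 the shift was 3.51-fold, 4.48-fold, 7.26-fold, 6.50-fold, 4.18-fold and 4.76-fold. It had 1 direction at all numbers, which mostly restates the contrast for which the pair was chosen. The shift was smallest at number 1 and largest at number 3. At numbers 1 and 2 both deposited signals were lower in ascorbate, that of AT4G33500 by more. The ratio shows that the 2 signals changed unequally and does not say how much of the shift belongs to either gene. Ratios between probes also depend on how well each probe binds, so the 2 levels are not set against each other.

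The genes differed in their spread between samples. In water the SD of AT4G33500 was 0.06 log2 units after normalization, and 0.824% of the 2670 probes above the lower end on all arrays had a smaller one. In ascorbate its SD was 0.34, near the median of 0.344 over these probes. Consecutive numbers of AT4G33500 in ascorbate lay within 0.105 log2 units of each other, while the 6 values spanned 0.77. The ascorbate spread of this gene thus lay between the pairs of numbers 1 and 2, 3 and 4, and 5 and 6. AT1G67820 had an SD of 0.28 in water, near the median of 0.269 over the same probes, and of 0.26 in ascorbate. Its consecutive numbers lay up to 0.31 apart in water and up to 0.51 in ascorbate.

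By pairs of consecutive numbers, AT4G33500 differed by -1.75, -1.92 and -1.24 log2 units after normalization and AT1G67820 by 0.60, 0.995 and 1.54. The difference of AT4G33500 was smallest in the pair of numbers 5 and 6, where that of AT1G67820 was largest. As deposited, AT1G67820 differed by -0.64, 0.87 and 0.95 in these pairs, so numbers 3 and 4 came close to numbers 5 and 6. The normalized 1.54 includes the water readings of AT1G67820 that lay nearest the lower end. Across all 12 arrays the normalized values of the 2 genes correlated at r = -0.84, which mostly restates the group difference for which they were chosen. After subtraction of the group means the correlation of their deviations was 0.29 over the 12 arrays, which share their normalization and their pairs of numbers.

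The rest of the PP2C family was hardly represented. Of 80 Arabidopsis PP2C loci listed from general knowledge, 2 had a probe of their own, the pair described here. No single-gene probe was found for the 9 listed abscisic acid co-receptors, the 11 listed abscisic acid receptors and SnRK2 kinases, the 8 listed members of mitogen-activated protein kinase cascades, the 2 listed chloroplast PP2C enzymes TAP38 and PBCP or the 2 thylakoid kinases STN7 and STN8. The same held for the 34 other protein phosphatases and the 425 protein kinases that the symbols and synonyms of the gene table reveal, a search that misses genes known by locus alone. How the partners of these phosphatases behaved was therefore not measured by a probe that can be named.

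A further 3 probes are annotated with several loci, all of the PP2C family, and cannot be assigned to 1 gene. The first carries AT1G67820 together with AT1G07160, AT4G08260 and AT2G30020, the last of which encodes AP2C1. On water arrays 1 to 6 it read 0.369, 0.288, 0.405, 0.354, 0.512 and 0.401, and on ascorbate arrays 1 to 6 it read 0.228, 0.0914, 0.357, 0.298, 0.340 and 0.351 as deposited. Ascorbate array 2 lay far under the others and the groups overlapped. After normalization the means were -1.61 ± 0.31 and -1.73 ± 0.40 log2 units (SD, n = 6 each). The difference was -0.12 ± 0.20 (SE, 95% interval -0.56 to 0.32, limma adjusted p 0.73), and it was 0.038 without ascorbate sample 2. The value grew to -0.59 as deposited (95% interval -1.28 to 0.09, limma adjusted p 0.21), -0.61 at the same total per array and -0.40 on the 75th percentile, and was -0.20 after centring. Without numbers 1 and 2 it was -0.13 after normalization and -0.30 as deposited. The probe of AT1G67820 alone read 1.04 on the normalized scale and 0.39 as deposited. That gene was chosen for its difference, so the 2 probes were not tested against each other. The share of each of the 4 transcripts in the shared reading is unknown.

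The other 2 probes both carry the loci AT3G63340 and AT3G63320. The first of them stood at -0.22 ± 0.07 log2 units in water and -0.25 ± 0.18 in ascorbate (SD, n = 6 each), a difference of -0.03 ± 0.09 (SE, 95% interval -0.22 to 0.17, limma adjusted p 0.88). Its groups overlapped, and its direction was turned by centring, to 0.18, and by leaving out numbers 1 and 2, to 0.061. The second stood at -2.62 ± 0.44 and -2.08 ± 0.48, a difference of 0.54 ± 0.25 (SE, 95% interval -0.02 to 1.10, limma adjusted p 0.18). It was higher in ascorbate at 5 of 6 numbers, the exception being number 2, and its direction was turned on deposited values, at -0.040. Without numbers 1 and 2 it was 0.77 after normalization (95% interval 0.12 to 1.42, limma adjusted p 0.12) and 0.56 as deposited. The normalized interval over all arrays was 0.04 to 1.03 with the replicate number as a block (limma adjusted p 0.11). With consecutive numbers averaged it was -0.34 to 1.41 (limma adjusted p 0.51). None of these 3 probes passed the threshold, beside 17.1% of all tested probes that did.

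**Figure D5:**
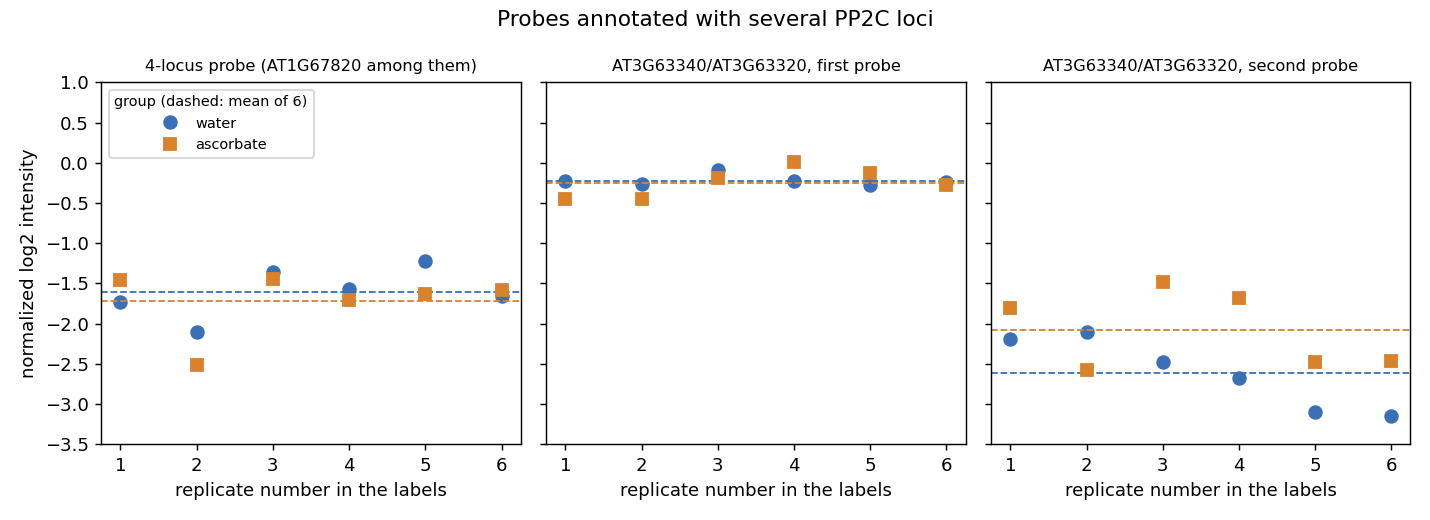
Normalized log2 intensity, by replicate number, of the 3 probes annotated with several PP2C loci, with circles for water, squares for ascorbate and dashed lines at the mean of 6 arrays. The groups overlap in each panel, and ascorbate array 2 is the lowest point of the panel for the probe that carries AT1G67820 and 3 further loci.

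Other single-gene probes were ranked by the Pearson correlation of their normalized log2 values with each phosphatase over the 12 arrays, out of 540 probes never at the lower end. This is a description of likeness, led by the group difference, and the arrays share their pairs of numbers. Most like AT4G33500 was LAS, a gene for a GRAS-family transcription regulator of shoot branching, with r = 0.94. It stood at -0.22 ± 0.10 log2 units in water and -0.69 ± 0.17 in ascorbate (SD, n = 6 each). AT4G04370, AT4G39690, GH9B12 and AT3G50270 followed with r of 0.90, 0.87, 0.86 and 0.84, GH9B12 being a glycosyl hydrolase gene of the endoglucanase type and AT3G50270 an acyltransferase gene. Their differences were -0.60, -0.68, -0.62 and -1.14 log2 units, all smaller than that of AT4G33500. After centring they were -0.35, -0.11, -0.69 and -1.26, and that of LAS was -0.31, so the values of LAS, AT4G04370 and AT4G39690 shrank by over 1.5 times, whereas as deposited the 5 stood at -1.65 to -0.50. Once the group means were subtracted, the correlation with AT4G33500 was 0.76 for LAS and 0.29 to 0.48 for the other 4. These values come from the arrays on which the 5 were picked, so they are no separate evidence of likeness.

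Most like AT1G67820 was ATSPS4F, which encodes a sucrose phosphate synthase, with r = 0.94. It stood at -0.85 ± 0.16 log2 units in water and -0.11 ± 0.14 in ascorbate (SD, n = 6 each), a difference of 0.75. AT4G31470, AT3G44020, AT1G74470 and AT3G47100 followed with r of 0.92, 0.92, 0.91 and 0.91, AT1G74470 being the gene of geranylgeranyl reductase in the synthesis of chlorophyll and tocopherol. Their differences were 0.63, 1.13, 0.60 and 0.86 log2 units. On deposited values all 5 were still higher in ascorbate, by 0.51, 0.46, 1.003, 0.65 and 0.30 log2 units in the order named, where AT1G67820 differed by 0.39. Once the group means were subtracted, the correlation of these 5 with AT1G67820 was 0.43 to 0.67, on the arrays on which they were picked.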

How the data were processed

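The deposited values are probe intensities on a linear scale, 1 per probe and array. How the authors scanned the arrays, corrected background and scaled the deposited intensities is not given in the sources used here.

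Values at or under the 1st percentile of an array's positive values were raised to it, log2 was taken and arrays were quantile normalized in limma 3.58.1 (R 4.3.3). Probes listed at 0 throughout, 173 in number, were dropped. Probes of both groups were compared with lmFit and eBayes, two-sided, Benjamini-Hochberg over 3266 probes, threshold 0.05, with no block. The method was tested on simulated data in which all arrays were drawn independently. That simulation held no pairing by number and no likeness of consecutive numbers, so it cannot show how the calls fare with them. Percentiles within an array use all 3439 probes. No 2 arrays held identical values.

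Platform annotation gave 1 gene for 692 probes, several for 870 and none for 1877, and 690 of the 692 matched RefSeq genes (TAIR10.1, used for names alone). Genes named were the pair, measured members of the lists, and the 5 probes most like each of the pair. The pair, lists and tests were chosen with earlier results of these data known. The list of 80 PP2C loci, and the 3 multi-locus probes it finds, were added after the files were seen.

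Same-numbered water and ascorbate samples deviated together from their group means, at correlations of 0.35 to 0.56 across probes, all over 0.1, so the labels' numbers pair the samples. Alternatives were other scalings, low-value treatments, filters, the replicate block, averaging of consecutive numbers and leaving out samples, and leaving out numbers 1 and 2 together was added after the data were seen. No sequences are printed, since none were in the sources used here.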

Additional observations from a re-analysis of the deposited data

Results flagged for a closer look

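Among 30 groups of 6 normalized values, 3 held a sample far from the rest, and chance alone flags about 1.5 of 30. None of the 3 belongs to AT4G33500 or AT1G67820. In the probe shared by AT1G67820, AT1G07160, AT4G08260 and AT2G30020, ascorbate sample 2 stood at -2.52 log2 units against -1.71 to -1.45. In the first probe of AT3G63340 and AT3G63320, water sample 3 stood at -0.086 against -0.28 to -0.23. For AT3G50270, water sample 2 stood at -0.66 against -1.18 to -0.99.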

How the results depend on the processing

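AT4G33500 stayed lower and AT1G67820 higher in ascorbate under all alternatives run. AT4G33500 moved by more than the spread between samples to -1.91 as deposited, -1.93 scaled to the same total and -1.14 with an offset in place of the floor. AT1G67820 moved to 0.39 as deposited, 0.59 on the 75th percentile, 0.37 at the same total and 0.41 with the offset. The change of their log2 ratio, 2.68 after normalization, was 2.31 as deposited, centred, on the 75th percentile or at the same total, and 1.55 with the offset, which shrinks differences of dim probes by construction. Leaving out 1 sample, or 1 number from both groups, gave -1.75 to -1.55, 0.96 to 1.13 and 2.59 to 2.80 for these 3 values. The consecutive number stayed in each time, so these ranges do not show the spread between pairs. By pairs of consecutive numbers AT4G33500 differed by -1.92 to -1.24 and AT1G67820 by 0.60 to 1.54. The 559 called probes became 368 at the same total, 351 and 336 without numbers 1 and 2 when centred or on the 75th percentile, and 1 with consecutive numbers averaged (501 at an unadjusted p under 0.05), and 314 to 584 with samples left out, with 314 and 329 when replicate 5 or 6 was dropped from both groups. With the replicate block, which takes up the pairing, 796 were called, 500 of them shared, and no call of the 3 multi-locus probes changed. Of the called probes 56.9% were higher in ascorbate, but 21.7% as deposited, 21.5% at the same total, 45.9% on the 75th percentile and 72.7% after centring. The multi-locus probes passed under none of 32 alternatives each, with adjusted p of 0.21 to 0.93, 0.28 to 1.0 and 0.10 to 0.94. The first moved to -0.59 as deposited and -0.61 at the same total. Signs turned for the first without ascorbate sample 2 (range -0.22 to 0.038 over samples left out), for the second after centring (0.18), without numbers 1 and 2 (0.061 normalized, 0.044 as deposited, 0.19 centred, 0.073 on the 75th percentile) and with samples left out (-0.079 to 0.014), and for the third as deposited (-0.040) and at the same total (-0.061), with 0.41 to 0.72 over samples left out. The planned counts in the other phosphatase and kinase lists could not be run, since no member besides AT1G67820 had a probe of its own. AT1G67820 stood nearest the lower end of the array at water numbers 5 and 6, where that end was higher than on the other water arrays. Its precision on single arrays was not measured.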
